A study of Mus musculus with 34 samples.

Results

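Mouse embryonic stem (ES) cells of the line C2 were compared between late-passage cells labelled detached and early-passage cells. The comparison used 12 of the 34 arrays of the series, from 6 of its 17 RNAs: 3 RNAs of detached cells and 3 of early cells, each hybridised to the array types MOE430A and MOE430B. Membership was read from the sample titles and used no measured value. C2 is a C57BL/6 line derived from a blastocyst. Per the labels, the detached late-passage cells were of high chimerism with transmission through the germline, in a medium named Thromb-XTX-WES. The early-passage cells gave low chimerism with no germline transmission, and their medium was DMEM with 15% fetal bovine serum. Both media held LIF, glutamine, beta-mercaptoethanol, pyruvate and non-essential amino acids, and all cells grew at 5% CO2 and 37 C on mouse embryonic fibroblast (MEF) feeders. Passage, medium, chimerism and the detached state changed together between the groups, and their effects cannot be told apart. The labels do not say from which surface the cells had detached, nor whether a group's RNAs were from separate cultures. The p-values therefore rest on the spread among RNAs, and that spread may be technical. Late-passage attached cells of C2 (3 RNAs, the same medium and chimerism labels) and the line D4 (2 detached and 3 early RNAs) served to place the C2 difference. Together with 3 attached D4 RNAs they also entered the fit. The spread behind the C2 p-values was thus estimated from all 17 RNAs.

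Mouse ES cells are cells of the inner cell mass kept in self-renewal. LIF acts through STAT3 and, with factors such as OCT4, SOX2 and NANOG, holds them in a state from which they can enter all tissues of a chimera. They are commonly grown on mitotically inactive fibroblasts, which secrete extracellular matrix and growth factors and carry actin stress fibres. Fibroblast transcripts are therefore a regular part of RNA from such cultures.

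The labels name MEFs as the contaminating cell type and give an estimated purity of about 90% for every sample. Light trypsin treatment and replating of the cell suspension for 1 hour were used against feeders. The 10 ES cell markers examined, among them Pou5f1, Nanog, Utf1 and Dppa5a, lay above the array median of every one of the 6 RNAs. The lowest of these values was 9.81 for Zfp42 in early replicate 3, against array medians of 9.15 to 9.42 on MOE430A, all on the scale log2(signal + 16) used throughout. Of 10 fibroblast markers, 6 were bright enough to be tested, and Lum, Pdgfrb, Prrx1 and Fap were not. Replicates correlated across probe sets at r = 0.923 to 0.943 within detached and 0.886 to 0.919 within early cells on MOE430A. On MOE430B the values were 0.776 to 0.787 and 0.71 to 0.766. The ratio of 3' to 5' Actb control signals, a sign of RNA quality, was 1.05 to 1.21 in detached and 0.887 to 1.17 in early cells on MOE430A. Chip lot and day were shared by all C2 arrays of MOE430A. Only detached replicates 2 and 3 and early replicates 1 and 2 shared a fluidics run, the batch in which arrays are washed and stained. On MOE430B early replicate 2 was on another chip lot and day than the other 5 arrays.

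More probe sets were lower than higher in detached cells, and the largest fall was in the collagen gene Col1a1. limma, a linear model with a moderated spread, called 117 of 14160 tested MOE430A probe sets at an adjusted p under 0.05. Of these, 18 were higher (0.127% of those tested) and 99 lower (0.699%) in detached cells. In all 117 the detached RNAs lay wholly above or wholly below the early RNAs. Over all tested genes, at 1 probe set each, 8.98% lay wholly above and 8.52% wholly below. The 117 were picked by the same values, so their separation is no separate support. The change was at least 2-fold for 107, of which 10 were higher and 97 lower. It was at least 8-fold for 22 of the lower probe sets and, among the higher, for Cubn. On MOE430B 3 of 16213 probe sets were called: Lefty2 was higher (0.00617%), and Klf6 and D630023F18Rik were lower (0.0123%). With each gene taken at its brightest tested probe set, 16 of 14105 genes were higher (0.113%) and 59 lower (0.418%), while the median change over all genes was 0.004.

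The counts depended on single RNAs. On MOE430A the higher probe sets numbered 46 without early replicate 2, 30 without D4 early replicate 1, 29 without attached replicate 1, 11 without either detached D4 RNA, 8 without detached replicate 1 or early replicate 1, and 6 without detached replicate 2. The lower ones numbered 63 without detached replicate 2, 55 without early replicate 3, 49 without detached replicate 1 and 40 without early replicate 1. With the fluidics run as a block, 0 were called higher and 2 lower (1241 at an unadjusted p under 0.05). Within the 1 run that held 2 RNAs of each group, 1 was higher and 3 lower. All 117 kept their direction in both fits, but their lack of overlap between the groups fixed this in advance.

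**Figure D1:**
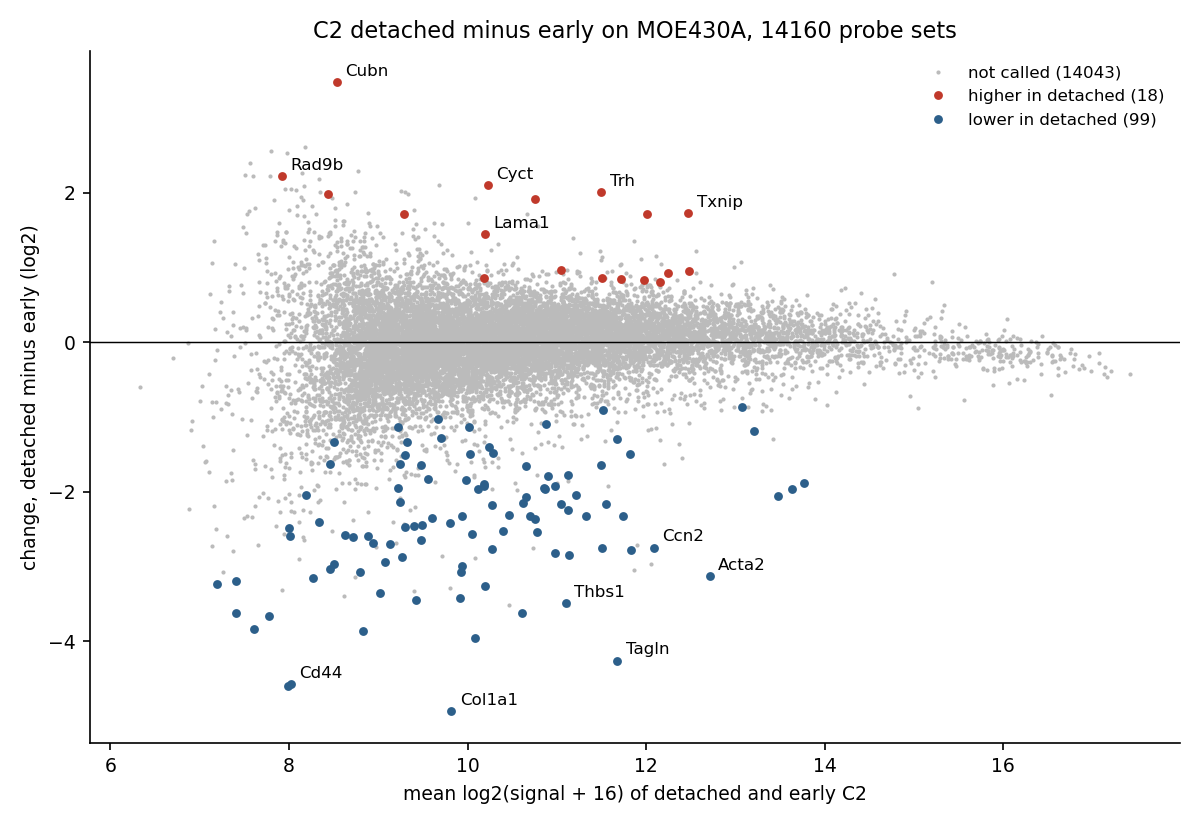
Each point is 1 of the 14160 tested probe sets of MOE430A, with the mean log2(signal + 16) of detached and early C2 cells on the horizontal axis and the log2 change, detached minus early, on the vertical axis. The 99 probe sets called lower (blue) reach -4.94 for Col1a1, and the 18 called higher (red) reach 3.48 for Cubn.

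Fibroblast and matrix genes had the lowest values relative to early cells. Of 38 genes listed as feeder fibroblast transcripts, 30 were tested, 17 fell and none rose, with a median change of -2.28. Over all 14105 tested genes 59 (0.418%) were called lower, which is the share to set beside this and the later lists. In 29 of the 30 (96.7%), all detached RNAs lay below all early RNAs, which was so for 1202 (8.52%) of all genes. Dcn, a small proteoglycan of fibroblasts, was the exception at 0.12 (adjusted p = 0.97).

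Col1a1, the main chain of type I collagen, read 6.14, 7.36 and 8.56 in detached cells, against 12.91, 11.84 and 12.12 in early cells. The groups did not overlap, and the highest detached value lay well under the lowest early one. The change was -4.94 (SE 0.657, limma adjusted p = 0.00538), a 30.7-fold lower signal. Another Col1a1 probe set gave -2.21 (adjusted p = 0.0706). Col1a2, its partner chain, read 7.26, 6.69 and 8.06 in detached cells, against 11.57, 9.49 and 11.04 in early cells, a change of -3.36 (SE 0.486, adjusted p = 0.00666). The brighter Col1a2 probe set gave -2.32 (adjusted p = 0.0398). At the first Col1a2 probe set detached cells lay wholly below early cells, which the choice of the largest falls required.

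Tnc encodes tenascin C, a matrix protein of wounds and embryonic mesenchyme. It read 8.78, 8.08 and 9.55 in detached cells, against 12.91, 12.16 and 12.19 in early cells (change -3.62, SE 0.479, adjusted p = 0.00538). Postn, which encodes the matricellular protein periostin, fell by 2.94 (adjusted p = 0.00753). Lower calls were also made for the proteoglycan gene Bgn (-2.32), the collagen genes Col5a1 (-2.37) and Col5a2 (-2.18), and Lox (-2.32), whose product cross-links collagen. Other probe sets of these genes gave -2.99 (adjusted p = 0.00628) and -3.52 (0.0729) for Bgn, -1.60 (0.0621) for Col5a1 and -3.29 (0.106) for Lox. Thy1, a surface antigen of fibroblasts, read 9.67, 9.72 and 10.67 in detached cells, against 12.11, 11.82 and 11.9 in early cells. It fell by 1.92 (SE 0.35, adjusted p = 0.0178), and lost its call without detached replicates 1 or 2 or early replicates 1 or 3. Vim, the intermediate filament gene of mesenchyme, fell by 2.06 (adjusted p = 0.0219) on 1 of its 3 probe sets, and the others gave -1.92 (0.059) and -1.98 (0.0733).

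The mean of the 30 feeder genes per RNA was 8.91, 9.29 and 9.89 in detached cells, against 11.95, 11.16 and 11.55 in early cells, a difference of -2.19 with no test. In group terms it was 9.36 ± 0.49 in detached and 11.55 ± 0.40 in early cells (SD, n = 3 each), with attached cells between them at 10.97 ± 0.09. Fewer fibroblasts and less of these RNAs per cell cannot be told apart in bulk RNA, and no RNA of feeders alone was measured. With the list mean as a covariate no probe set of either direction was called (709 at an unadjusted p under 0.05 on MOE430A, limma), and 97 of the 117 kept their sign. In that fit the median standard error was 0.676, against 0.282 without the covariate. The list mean did not overlap between detached and early cells, and it holds the listed genes' own values. For a listed gene this fit therefore decides nothing.

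**Figure D2:**
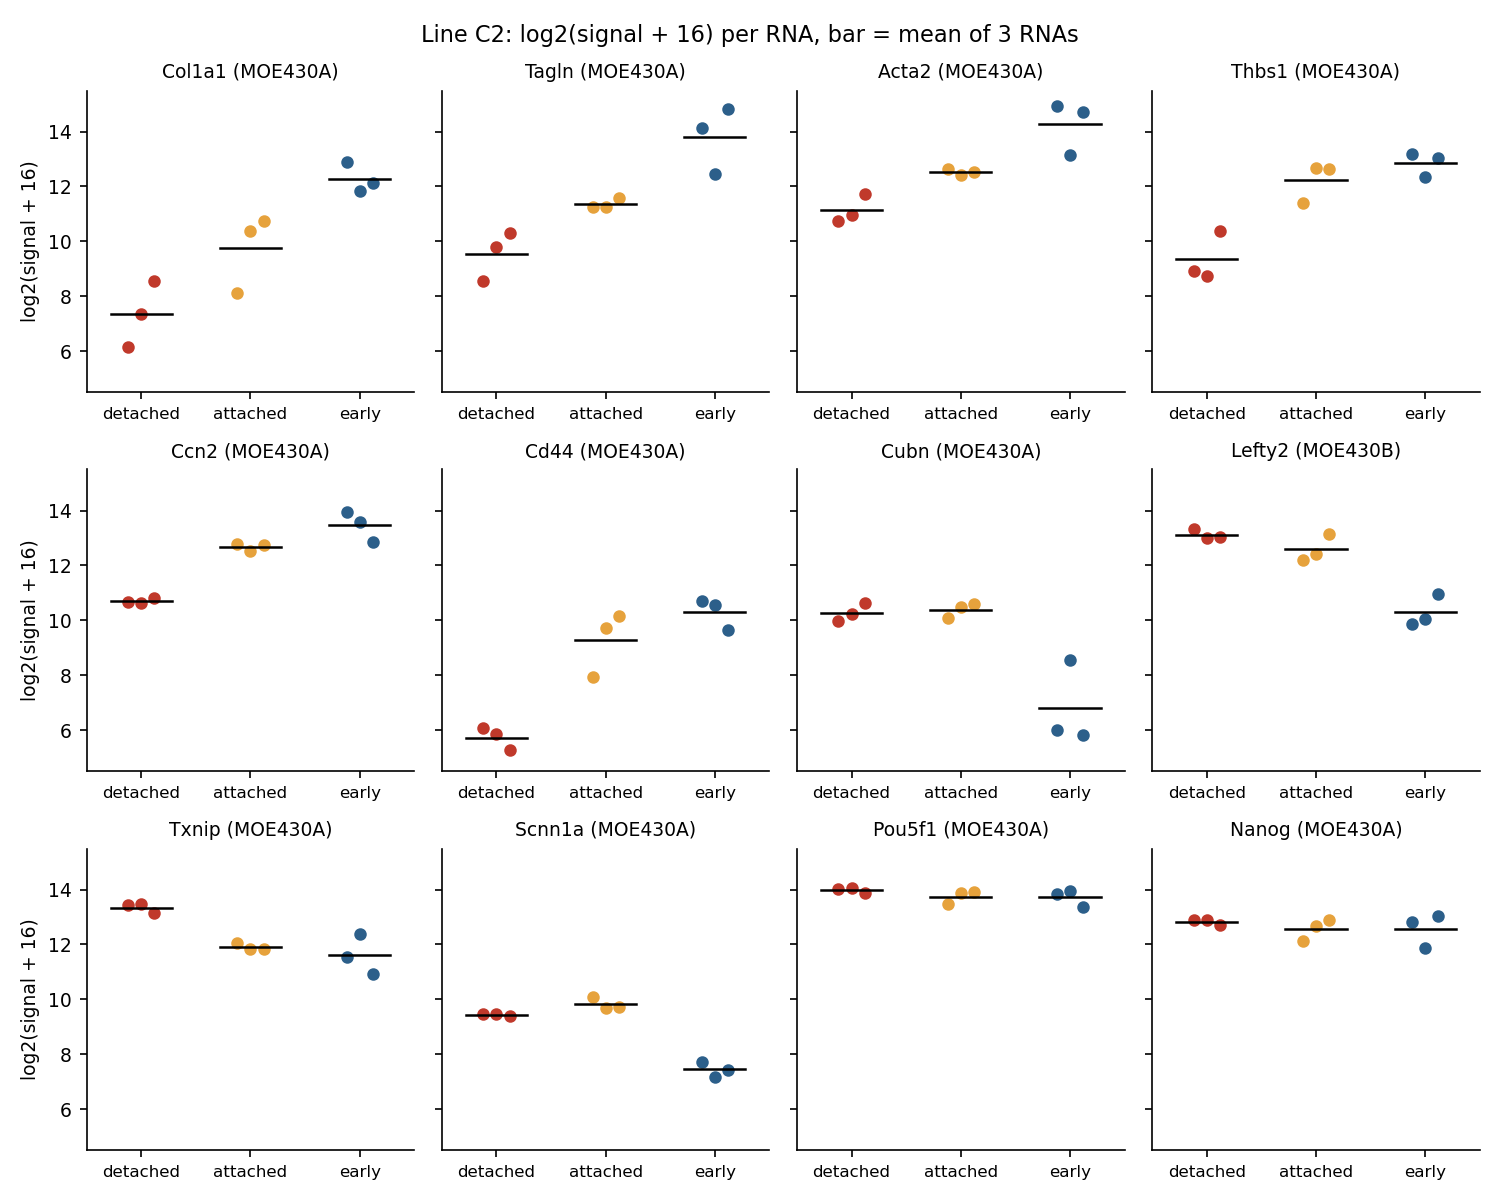
Each panel gives 1 gene, with log2(signal + 16) of the 3 C2 RNAs per state on the vertical axis (points) and their mean (bar), detached at the left, attached in the middle and early at the right. Col1a1, Tagln, Acta2, Thbs1, Ccn2 and Cd44 lie lower in detached cells, Cubn, Lefty2, Txnip and Scnn1a higher, and Pou5f1 and Nanog overlap between detached and early cells.

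Genes of the contractile actin apparatus were lower as a group. These genes are regulated by serum response factor (SRF), which binds the CArG box and is switched on when actin polymerises. All 23 tested genes of the list changed below 0, with a median of -1.31, and 5 passed the test: Tagln, Myl9, Acta2, Cnn1 and Cald1. In 15 of the 23 (65.2%) the detached RNAs lay wholly below the early RNAs. Of all genes 8.52% lay so, and 0.418% were called lower. Tagln, Acta2 and Cald1 are also on the feeder list. Among the other 20 genes 2 fell, and the median was -0.97.

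Tagln, which encodes the actin-binding protein SM22, read 8.56, 9.8 and 10.3 in detached cells, against 14.14, 12.47 and 14.83 in early cells. Its change was -4.26 (SE 0.656, adjusted p = 0.00753), and early replicate 2 was the lowest of the early RNAs. The Tagln call was lost with the fluidics run as a block (limma adjusted p = 0.147) and with only the arrays of the contrast. The same held for Col1a2, Myl9, Thbs1 and Csf1 at the probe sets with values per RNA (limma adjusted p = 0.136, 0.102, 0.131 and 0.136 with the block). Acta2, smooth muscle actin, read 10.74, 10.97 and 11.73 in detached cells, against 14.95, 13.16 and 14.72 in early cells (change -3.13, SE 0.529, adjusted p = 0.0101). The Acta2 call was lost without detached replicate 1, early replicate 1 or early replicate 3, and a dim Acta2 probe set on MOE430B gave 0.06. Cnn1, the actin-binding protein calponin, read 6.88, 6.53 and 8.38 in detached cells, against 10.6, 9.53 and 10.9 in early cells (change -3.08, SE 0.633, adjusted p = 0.0351). The call was lost in 8 of the 17 fits that each left out 1 RNA.

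Myl9, a regulatory light chain of non-muscle and smooth muscle myosin, read 8.45, 6.35 and 8.31 in detached cells, against 11.52, 10.63 and 11.29 in early cells. The change was -3.45 (SE 0.535, adjusted p = 0.00753), and the groups stood 2 or more log2 units apart. Cald1, caldesmon, fell by 2.75 (adjusted p = 0.00749). Other Cald1 probe sets gave -2.52 (adjusted p = 0.00753), -2.89 (0.0697) and, on MOE430B, 0.35 (0.958). The fall was not called for Tpm1, a tropomyosin (-2.71, adjusted p = 0.055), Acta1, skeletal muscle actin (-3.14, 0.22), Vcl, vinculin (-1.07, 0.11), or Srf itself (-0.35, 0.53). With the feeder list mean as a covariate Myl9 was at -2.26 (SE 1.31), Tagln at -0.13 (SE 1.1), Acta2 at 0.52 (SE 0.757) and Cnn1 at 0.30 (SE 1.24), and none was called. Tagln and Acta2 are themselves part of that mean.

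The window from 250 bases before to 50 after the start of Myl9 is shown because it holds a CArG box, printed in capitals, which begins 161 bases before the start. It lies at chr2:156775214-156775513 on the plus strand of GRCm38.p6 and was taken from RefSeq.
Myl9: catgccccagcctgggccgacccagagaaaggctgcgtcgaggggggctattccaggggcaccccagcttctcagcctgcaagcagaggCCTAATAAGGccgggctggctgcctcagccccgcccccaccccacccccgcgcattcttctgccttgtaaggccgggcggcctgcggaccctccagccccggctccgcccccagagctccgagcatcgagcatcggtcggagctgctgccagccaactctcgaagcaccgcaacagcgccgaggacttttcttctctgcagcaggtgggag
Of the 23 tested genes of the list, 21 had such windows, and a CArG box was found in 8 (38.1%), among them Actc1, Acta1, Srf, Vcl and Cnn2. It was found in 488 (1.81%) of all 27025 genes with windows. The list was made of known SRF targets, the box reads alike on both strands, and a match is a description of the letters.

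Targets of YAP and TEAD also held several falls. YAP is a transcriptional coactivator that enters the nucleus in spread cells and acts through the DNA-binding TEAD factors. Of 20 tested genes 5 fell and none rose (median -0.49): Ccn2, Thbs1, Axl, Ccn1 and Amotl2. The share called lower over all genes was 0.418%. Ccn2, Thbs1 and Fstl1 are also on the feeder list, and among the other 17 genes 3 fell (median -0.34).

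Ccn2, a matricellular growth factor, had the smallest adjusted p of the comparison. It read 10.68, 10.65 and 10.8 in detached cells, against 13.94, 13.58 and 12.86 in early cells (change -2.75, SE 0.261, limma adjusted p = 0.000608). It kept its call with the fluidics run as a block (-3.03, adjusted p = 0.00248) and in every fit without 1 RNA. With the feeder list mean, which includes Ccn2 itself, as a covariate, Ccn2 was at -2.62 (SE 0.657, adjusted p = 0.955). Thbs1, the matrix glycoprotein thrombospondin 1, read 8.93, 8.75 and 10.39 in detached cells, against 13.17, 12.34 and 13.03 in early cells (change -3.49, SE 0.466, adjusted p = 0.00538).

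Axl, a receptor tyrosine kinase, fell by 2.35 (SE 0.383, adjusted p = 0.00813), although a dimmer Axl probe set gave -0.43 (0.618). Ccn1, another matricellular protein, fell by 1.79 (SE 0.321, adjusted p = 0.0165), a call lost without detached replicates 1 or 2 or early replicates 1 or 3. Other Ccn1 probe sets gave -1.31 (adjusted p = 0.0842) and, on MOE430B, -1.70 (0.764) and -0.87 (0.934). Amotl2, an angiomotin-like partner of YAP, read 10.97, 10.78 and 11.46 in detached cells, against 12.58, 12.5 and 12.63 in early cells, and fell by 1.5 (adjusted p = 0.00753). Ankrd1, a nuclear ankyrin-repeat protein, read 5.68, 6.76 and 5.4 in detached cells, against 9.69, 9.66 and 9.46 in early cells on 1 probe set. That probe set was called (-3.66, SE 0.666, adjusted p = 0.0178, lost without detached replicates 1 or 3 or early replicates 1 or 3), and the brighter one that stood for the gene in the list was not (-2.24, 0.103). The genes of the factors themselves differed little, with Yap1 at -0.09 (adjusted p = 0.9), Wwtr1 at -0.34 (0.36) and Tead1 at -0.38 (0.79).

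The same windows are shown for 4 genes of this list that hold the TEAD core GGAATG, searched on both strands and printed in capitals where found, as CATTCC where it lies on the other strand. They lie at chr19:36119795-36120094 (minus strand) for Ankrd1, chr3:145649936-145650235 (minus) for Ccn1, chr7:25788684-25788983 (minus) for Axl and chr9:102717554-102717853 (plus) for Amotl2, from RefSeq on GRCm38.p6.
Ankrd1: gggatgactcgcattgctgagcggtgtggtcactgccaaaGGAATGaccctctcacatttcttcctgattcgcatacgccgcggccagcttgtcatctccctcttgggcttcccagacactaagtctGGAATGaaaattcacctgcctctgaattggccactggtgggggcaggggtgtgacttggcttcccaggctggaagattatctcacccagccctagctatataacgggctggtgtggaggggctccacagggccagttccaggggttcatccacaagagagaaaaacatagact
Ccn1: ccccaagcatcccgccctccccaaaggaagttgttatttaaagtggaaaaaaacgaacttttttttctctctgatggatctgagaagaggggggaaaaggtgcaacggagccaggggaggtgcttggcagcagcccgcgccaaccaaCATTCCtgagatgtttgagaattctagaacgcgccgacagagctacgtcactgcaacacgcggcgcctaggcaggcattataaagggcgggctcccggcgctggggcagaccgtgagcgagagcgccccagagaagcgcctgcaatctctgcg
Axl: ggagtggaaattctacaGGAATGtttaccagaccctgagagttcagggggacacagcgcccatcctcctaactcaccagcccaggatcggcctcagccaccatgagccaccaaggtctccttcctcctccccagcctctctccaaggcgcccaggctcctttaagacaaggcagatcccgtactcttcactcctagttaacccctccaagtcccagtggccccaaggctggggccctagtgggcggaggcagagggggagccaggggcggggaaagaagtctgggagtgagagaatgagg
Amotl2: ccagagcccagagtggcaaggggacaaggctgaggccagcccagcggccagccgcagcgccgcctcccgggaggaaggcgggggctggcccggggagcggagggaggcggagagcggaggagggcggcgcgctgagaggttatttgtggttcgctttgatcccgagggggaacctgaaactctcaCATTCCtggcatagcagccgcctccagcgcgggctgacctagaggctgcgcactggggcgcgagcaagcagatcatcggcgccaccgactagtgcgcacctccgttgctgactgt
Ankrd1 holds 2 copies, which begin 210 and 123 bases before the start. The single copies begin 233 bases before the start in Axl, 103 in Ccn1 and 65 in Amotl2. Of the 20 tested genes, 13 had windows and 9 (69.2%) held the core, against 4481 (16.6%) of all 27025 genes. The core overlaps no CArG box in these 4 windows, and the list was made of known TEAD targets and factors.

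Adhesion and secreted signalling genes held fewer falls. Of 20 integrins, galectins and related genes, Cd44 and Lgals1 fell and none rose (median -0.67). Cd44, the hyaluronan receptor, read 6.08, 5.84 and 5.26 in detached cells, against 10.72, 10.55 and 9.65 in early cells on its most changed probe set. This was a change of -4.58 (SE 0.582, adjusted p = 0.00538). The brighter probe set gave -1.92 (SE 0.378, adjusted p = 0.0282), lost without detached replicates 1 or 3 or early replicates 1 or 2, and another, on MOE430B, gave -2.09 (0.22). With the feeder list mean as a covariate the most changed probe set was at -4.82 (SE 1.47, adjusted p = 0.955). Lgals1, galectin 1, read 12.85, 12.8 and 12.83 in detached cells, against 14.75, 14.05 and 15.36 in early cells (change -1.89, SE 0.361, adjusted p = 0.0225). That call was lost without any 1 of the 3 detached RNAs or without early replicates 1 or 3. Itgb1, the common beta chain of matrix receptors, was at -1.48 (adjusted p = 0.086) and Itga6, the laminin receptor chain of ES cells, at 0.26 (0.71).

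Among 16 cytokines and growth factor binding proteins, Csf1 and Igfbp7 fell and none rose (median -0.87). Csf1, the macrophage growth factor, read 9.17, 7.68 and 9.83 in detached cells, against 11.76, 11.62 and 11.62 in early cells (change -2.77, SE 0.455, adjusted p = 0.00854). Other Csf1 probe sets gave -2.48 (adjusted p = 0.00666), -2.33 (0.00538) and -0.95 (0.257). Igfbp7, which binds insulin-like growth factors, fell by 1.66 (SE 0.345, adjusted p = 0.037), a call lost in 8 of 17 such fits. Lif, which feeders also make, was at -0.91 (adjusted p = 0.62), and Inhba, an activin chain, at -2.86 (0.086). Of 17 proteases and inhibitors, Timp2 alone fell (median -0.60). It is among the 3 that the feeder list also holds, and none of the other 14 was called (median -0.57). Timp2, an inhibitor of matrix metalloproteases, read 10.33, 9.37 and 10.18 in detached cells, against 12.49, 11.85 and 12.04 in early cells (change -2.17, adjusted p = 0.00749). Its 5 probe sets on MOE430A ran from -3.86 to -1.06, and 3 of them were called.

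Few regulators of growth passed the test. Of 28 cell cycle genes Ccnd2 and Cdkn2b fell, with a median of 0.22 over the list. Ccnd2, cyclin D2, read 10.17, 9.81 and 10.73 in detached cells, against 12.68, 11.72 and 11.62 in early cells (change -1.77, SE 0.384, adjusted p = 0.0479, lost in 12 of 17 fits without single RNAs). Other Ccnd2 probe sets gave -2.42 (adjusted p = 0.00749), -1.97 (0.0181), -1.37 (0.0646) and -1.52 (0.211). Cdkn2b, the cell cycle inhibitor p15, fell by 2.59 (adjusted p = 0.0351, lost in 6 of 17). Cyclins A2 and B2 (Ccna2 at 0.27, Ccnb2 at 0.29), Mki67 (0.60) and Pcna (0.00) were not called. Of 19 p53 targets Plk2 alone fell. Plk2, a stress-induced kinase, read 9.89, 9.75 and 10.4 in detached cells, against 12.31, 11.87 and 12.56 in early cells (change -2.24, SE 0.253, adjusted p = 0.00275). A Plk2 probe set on MOE430B gave -0.52 (adjusted p = 0.9). Cdkn1a was at -0.70 (0.241) and Mdm2 at -0.72 (0.281). Fosl1, an AP-1 subunit, was the 1 called gene among 19 immediate early genes and among 18 genes of FGF and ERK feedback, at -2.59 (SE 0.51, adjusted p = 0.0282). It lost that call without any 1 of the 6 RNAs, and Fos at -1.67 (0.092), Egr1 at -0.50 (0.52), Dusp6 at 0.04 (0.99) and Spry2 at 0.02 (0.98) were not called.

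Other genes with large falls stood on none of these lists. Hmga2, an architectural chromatin protein of proliferating mesenchyme, read 5.49, 5.45 and 6.14 in detached cells, against 9.88, 9.27 and 9.46 in early cells (change -3.84, SE 0.736, adjusted p = 0.0233, lost without detached replicates 1 or 2 or early replicates 1 or 3). Its brighter probe sets gave -2.15 (0.00628) and -1.33 (0.00979), and 1 on MOE430B gave 0.05. Cryab, a small heat shock protein, read 6.01, 5.7 and 5.34 in detached cells, against 9.56, 9.26 and 12.05 in early cells. Early replicate 3 was far above the other early RNAs, and the change was -4.60 (SE 0.855, adjusted p = 0.0194). A brighter Cryab probe set did not share the direction, at 0.58 (adjusted p = 0.742), and a dimmer one gave -2.71 (0.29). The call of the first probe set was lost without any 1 detached RNA or without early replicates 1 or 3. Prss23, a secreted serine protease, fell by 3.63 (adjusted p = 0.0351, lost in 8 of 17 fits without single RNAs). Other Prss23 probe sets gave -2.65 (adjusted p = 0.106) and, on MOE430B, -0.56 (0.954).

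On MOE430B, Klf6, a zinc-finger transcription factor, read 9.7, 7.97 and 8.7 in detached cells, against 11.7, 11.03 and 11.47 in early cells (change -2.61, SE 0.377, adjusted p = 0.0474). Its MOE430A probe sets gave -1.64 (adjusted p = 0.00628), -1.51 (0.216) and -0.92 (0.35). D630023F18Rik fell by 2.56 (SE 0.353, adjusted p = 0.0474), while its brighter probe set gave -0.54 (0.86). The calls on this array type were lost in most fits without single RNAs, 15 of 17 for Klf6 and Lefty2 and 14 for D630023F18Rik, and all 3 were lost with the chip lot as a block.

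The rises were fewer, and no list held more than 1 of them. Cubn, the endocytic receptor cubilin of visceral endoderm and kidney, read 9.97, 10.24 and 10.62 in detached cells, against 5.99, 8.57 and 5.82 in early cells. Early replicate 2 was the highest early RNA and lay below every detached one, which the choice of the largest rises required. The change was 3.48 (SE 0.553, limma adjusted p = 0.00753), an 11.2-fold higher signal, and it kept its call in all 17 fits without single RNAs (highest adjusted p = 0.0499). The call was lost with only the arrays of the contrast and with the fluidics run as a block (limma adjusted p = 0.136). The brighter Cubn probe set read 9.98, 10.14 and 10.69 in detached cells, against 8.46, 8.31 and 7.99 in early cells, a change of 2.02 that was not called (adjusted p = 0.0861). Lama1, the alpha chain of the embryonic basement membrane laminin, read 10.84, 10.97 and 10.96 in detached cells, against 9.38, 9.53 and 9.5 in early cells (change 1.45, SE 0.244, adjusted p = 0.00979). Its call was lost without early replicate 1 (adjusted p = 0.0534).

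Cubn and Lama1 are both genes of extraembryonic endoderm, yet the list did not move as 1 group. Of its 26 tested genes Lama1 alone passed the test, with Cubn taken at its brighter probe set, and the median was 0.18. Srgn, a proteoglycan, was at 1.98 (adjusted p = 0.115) and Dab2, an endocytic adaptor that works with cubilin, at 1.03 (0.144). The endoderm transcription factors Gata4 (0.26, adjusted p = 0.73), Gata6 (0.15, 0.872) and Sox17 (-0.36, 0.772) were not called. Lama1 was also the 1 called gene of 17 basement membrane genes, whose median was -0.38, with Col4a1 at -0.76 (0.34) and Col4a2 at -1.30 (0.13).

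Lefty2, a secreted antagonist of Nodal, read 13.32, 13 and 13.03 in detached cells, against 9.87, 10.05 and 10.96 in early cells on MOE430B (change 2.82, SE 0.414, adjusted p = 0.0474). The 3 detached values lay close together and at least 2 log2 units above the early ones. The 1 fluidics run shared on that array type held only 1 early RNA beside detached replicates 2 and 3, and there the change was 3.15 and was not called (SE 0.621, adjusted p = 0.204). Its paralog Lefty1, on MOE430A, read 13.39, 13.18 and 12.47 in detached cells, against 11.69, 12.72 and 11.88 in early cells, so that the groups overlapped (change 0.92, adjusted p = 0.336). Of 18 Nodal pathway genes Lefty2 alone was called. The ligand gene Nodal was at -0.69 (adjusted p = 0.21), the coreceptor Tdgf1 at 0.55 (0.56), the receptor Acvr1b at 0.71 (0.16) and the signal transducers Smad2 and Smad3 at -0.33 (0.69) and -0.10 (0.93).

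Txnip, an inhibitor of thioredoxin and of glucose uptake, read 13.44, 13.46 and 13.13 in detached cells, against 11.55, 12.37 and 10.91 in early cells (change 1.73, SE 0.281, adjusted p = 0.00813). A second Txnip probe set gave 1.72 (adjusted p = 0.0128). The first kept its call in all 17 fits without single RNAs (highest adjusted p = 0.0495). It lost the call with only the arrays of the contrast and with the fluidics run as a block (limma adjusted p = 0.145). Among the other 20 genes of thioredoxin, glutathione and metal handling none was called, with Txn1 at -0.22 (0.58) and Txnrd1 at -0.02 (0.98). Trh, the gene of thyrotropin-releasing hormone, read 12.45, 12.52 and 12.56 in detached cells, against 10.21, 10.43 and 10.84 in early cells (change 2.01, SE 0.373, adjusted p = 0.0194). That call was lost without any 1 detached RNA or without early replicate 1.

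Scnn1a, the alpha subunit of the epithelial sodium channel, read 9.46, 9.46 and 9.38 in detached cells, against 7.73, 7.17 and 7.44 in early cells (change 1.99, SE 0.281, adjusted p = 0.00628). It was the 1 called gene of 19 solute carriers and channels. Cyct, testis cytochrome c, read 11.81, 11.21 and 10.81 in detached cells, against 9.33, 9.37 and 8.84 in early cells (change 2.10, SE 0.335, adjusted p = 0.00753). Tefm, a mitochondrial transcription elongation factor, read 11.98, 11.73 and 11.45 in detached cells, against 9.41, 9.88 and 10.12 in early cells (change 1.92, SE 0.302, adjusted p = 0.00753). Scnn1a, Cyct and Tefm kept their calls in all 17 fits without single RNAs (highest adjusted p = 0.0301, 0.0454 and 0.0491). All lost them with the fluidics run as a block (limma adjusted p = 0.102, 0.184 and 0.0977). Cyct and Tefm also lost them with only the arrays of the contrast.

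The remaining named rises were smaller or less stable. Rad9b, a paralog of a checkpoint clamp protein, rose by 2.22 (adjusted p = 0.037, lost in 9 of 17 fits without single RNAs) and Ccnq, a cyclin, by 1.71 (0.0391, lost in 11). Mcm3ap, which acts in mRNA export, rose by 0.97 (0.0188, lost without any 1 detached RNA or early replicate 1). Pold2, a subunit of DNA polymerase delta, rose by 0.95 (0.0203, lost without detached replicates 1 or 2 or early replicates 1 or 2). Slc25a39, a mitochondrial carrier, rose by 0.92 (0.0453, lost in 14 of 17 fits). Its brighter probe sets were not called, at 0.58 (adjusted p = 0.16), 0.44 (0.45) and, on MOE430B, 0.39 (0.841).

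Genes of naive pluripotency were not called. Of 24 tested genes 23 changed above 0, with a median of 0.40, and in 8 (33.3%) the detached RNAs lay wholly above the early RNAs, which was so for 1267 (8.98%) of all genes. Pou5f1, which encodes OCT4, read 14.04, 14.05 and 13.89 in detached cells, against 13.85, 13.94 and 13.35 in early cells (change 0.28, SE 0.233, adjusted p = 0.671). Nanog read 12.91, 12.88 and 12.72 in detached cells, against 12.82, 11.89 and 13.03 in early cells (change 0.26, SE 0.326, adjusted p = 0.796). The groups overlapped for both. Sox2 read 13.42, 13.4 and 13.24 in detached cells, against 12.99, 12.49 and 12.26 in early cells, without overlap but short of the threshold (change 0.77, SE 0.255, adjusted p = 0.207).

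Gbx2, a homeobox gene downstream of LIF, read 10.98, 11.03 and 11.14 in detached cells, against 8.69, 10.74 and 7.92 in early cells. The early RNAs were spread over more than 2 log2 units, and the change of 1.93 was not called (SE 0.604, adjusted p = 0.184). Tfcp2l1 at 0.83 (0.273), Esrrb at 0.46 (0.32), Klf5 at 0.49 (0.344), Klf4 at 0.49 (0.484), Klf2 at 0.41 (0.592), Zfp42 at 0.64 (0.457), Tbx3 at 0.22 (0.771) and Dppa3 at 0.39 (0.708) were not called either. The mean of the list was 12.55 ± 0.04 in detached and 12.02 ± 0.19 in early cells (SD, n = 3 each). The feeder list mean was lower in the same detached RNAs, and its part in this shift was not tested. With that mean as a covariate none of the 12 genes named here was called, with standard errors of 0.467 to 1.47. Of them, 7 stayed above 0, from 0.17 for Klf5 to 1.56 for Tfcp2l1, and 5 lay below 0: Pou5f1 at -0.17, Nanog at -0.23, Zfp42 at -0.28, Klf4 at -0.31 and Klf2 at -0.44.

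None of 20 LIF and STAT3 genes was called (median 0.22), with Socs3, the feedback inhibitor of LIF signalling, at 1.05 (SE 0.257, adjusted p = 0.0842), Pias3 at 1.06 (0.072) and Stat3 at 0.23 (0.71). Of 23 general pluripotency genes only Lefty2 was called (median 0.29). None of 11 primed epiblast genes was called (median -0.52), nor of 23 DNA methylation and chromatin genes (0.21), where Dnmt3b was at -0.10 (adjusted p = 0.905) and Dnmt3l at -0.64 (0.377). No gene was called among 14 of mesoderm (median -0.32), 10 of neuroectoderm (-0.55), 12 of trophoblast (-0.59) and 10 of blood and macrophage (0.25). Krt8 and Krt18, keratins of simple epithelia, were at -3.05 (SE 0.766, adjusted p = 0.0894) and -2.97 (SE 0.747, 0.0901). Krt8 read 10.17, 10.55 and 10.31 in detached cells, against 12.74, 11.76 and 15.68 in early cells, so that early replicate 3 stood far above the other early RNAs.

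No gene was called on the remaining lists either. Their medians were -0.33 for keratins and epithelial junctions, -0.36 for imprinted genes, 0.39 for germ line and meiosis, -0.05 for the retinoic acid response and -0.46 for the BMP and TGF-beta response. They were 0.06 for the Wnt response, 0.08 for cholesterol synthesis, -0.24 for glycolysis and hypoxia, 0.06 for the ATF4 response and -0.04 for antigen presentation and interferon.

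**Figure D3:**
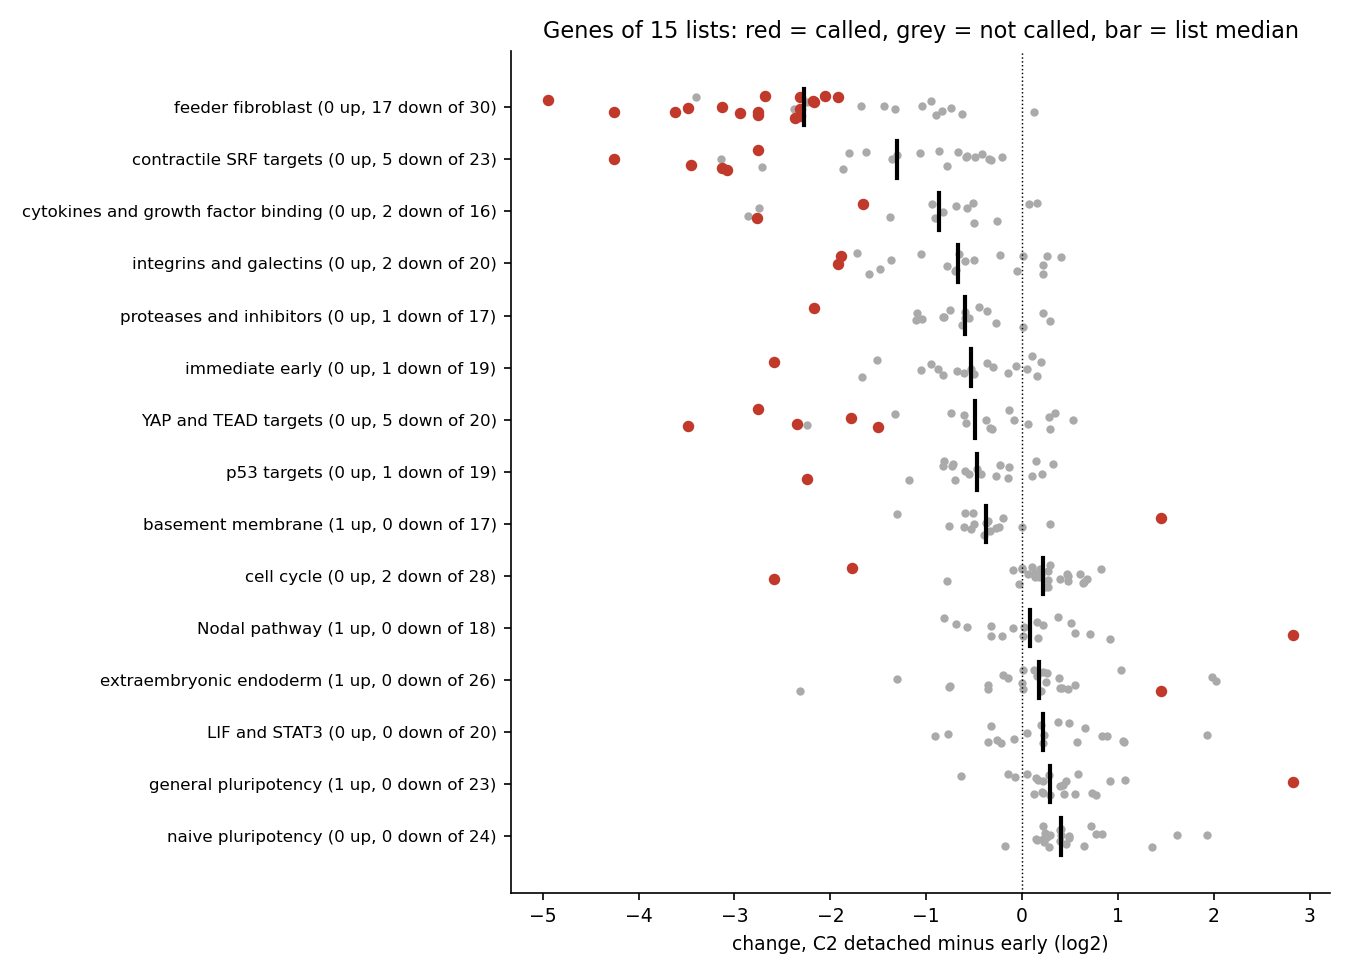
Each point is the log2 change, C2 detached minus early, of 1 tested gene of the list at the left, red where it was called and grey where not, and the black bar is the list median. Medians run from -2.28 for the feeder list to 0.40 for naive pluripotency, and the median of all genes was 0.004.

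**Figure D4:**
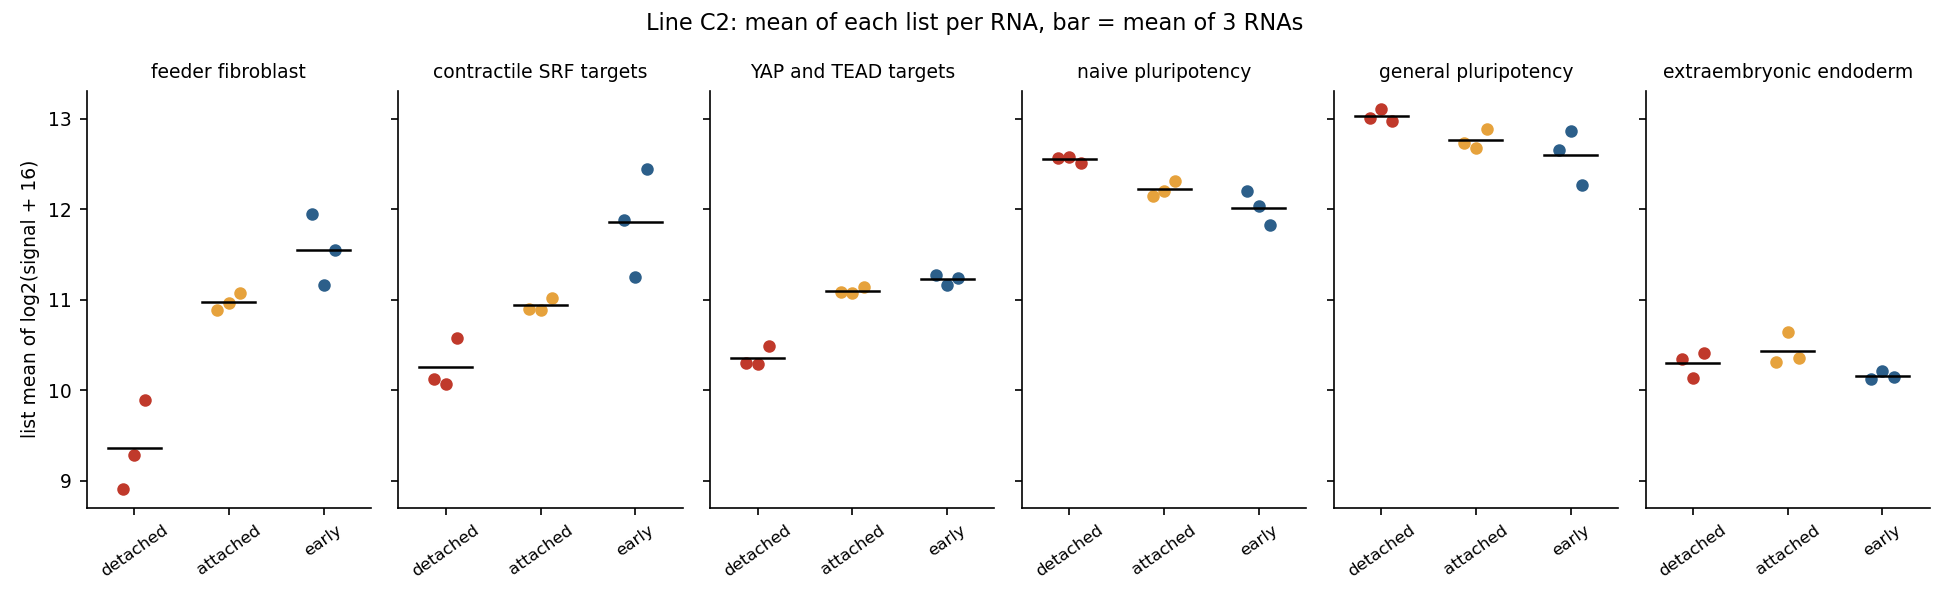
Points give the mean log2(signal + 16) of each list in each C2 RNA and bars the mean of 3 RNAs, with detached cells left of attached and early cells. The feeder list is lowest in detached cells at 8.91 to 9.89, while the naive pluripotency list lies higher there, at 12.55 against 12.02 in early cells.

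The lines C2 and D4 were compared to see how far the difference was shared. D4 shares no sample with the C2 comparison. Both lines were tested in 1 fit with a shared spread, however, so their calls are not independent. In D4, detached minus early gave 21 higher (0.148%) and 127 lower (0.897%) probe sets on MOE430A. Of the 117 C2 calls, 116 had the same sign in D4, and 62 were also called there, 4 higher and 58 lower. These are 53% of the C2 calls and 41.9% of the D4 calls. Over all tested probe sets, 67.7% had the same sign, with r = 0.567 across probe sets, which are not independent replicates. The lower C2 calls had a median of -2.35 in C2 and -2.23 in D4, and the higher ones of 1.58 in C2 and 0.77 in D4. These probe sets were picked by their C2 change, which favours larger medians in C2.

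No probe set passed the test of the difference between lines. On MOE430A 0 were called (584 at an unadjusted p under 0.05, smallest limma adjusted p = 0.0574), and on MOE430B 0 were called (641, smallest 0.104). The smallest value belonged to Scnn1a, the 1 call of opposite sign, at 1.99 in C2 and -1.06 in D4. The count of such calls reached 2 without D4 detached replicate 1 and 1 without D4 attached replicate 3. Cubn was at 3.48 in C2 and 4.07 in D4, Trh at 2.01 and 2.12, Col1a1 at -4.94 and -6.66 and Ccn2 at -2.75 in both. Txnip at 1.12 (adjusted p = 0.117), Lama1 at 1.10 (0.0744), Cryab at -3.29 (0.128) and Hmga2 at -2.46 (0.169) were not called in D4. Srgn, not called in C2, was at 4.19 in D4 (adjusted p = 0.00479; adjusted p of the difference 0.997).

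**Figure D5:**
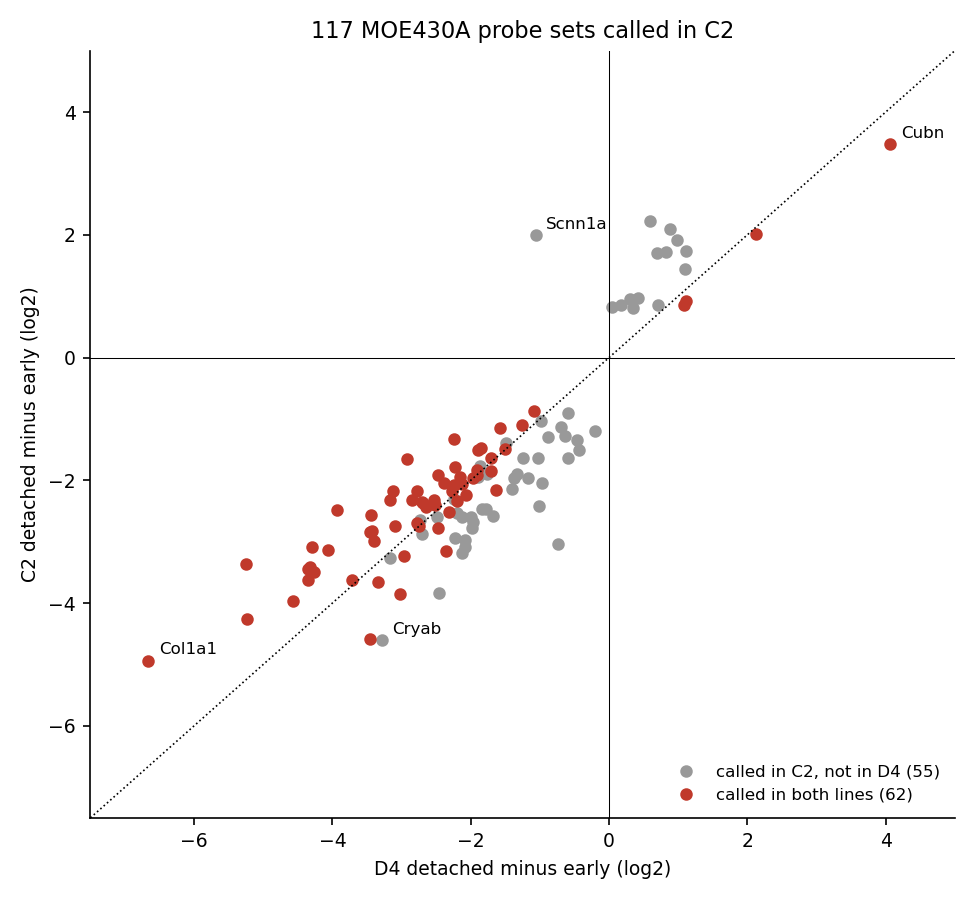
Each point is 1 of the 117 MOE430A probe sets called in C2, with the log2 change of D4 on the horizontal axis, that of C2 on the vertical axis and equality as a dotted line. The 62 called in both lines are red, and Scnn1a is the 1 point with opposite signs, at 1.99 in C2 and -1.06 in D4.

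Attached late-passage C2 cells had the same medium, passage and chimerism labels as the detached cells. The difference from detached cells was tested directly on MOE430A, where 27 probe sets were lower (0.191%) and 2 higher (0.0141%) in detached cells. The 2 higher ones were Tnk1, a tyrosine kinase, at 1.81 (adjusted p = 0.0437), and Pask, a metabolic kinase, at 1.73 (0.0437). The lower ones included Cd44 at -3.54 (0.0354), Timp2 at -3.32 (0.0437), Tnc at -3.24 (0.0304), Thbs1 at -2.88 (0.0354), Csf1 at -2.48 (0.0437) and Ccn2 at -1.98 (0.011). Both comparisons use the same detached RNAs, so no count of shared directions is given. The count of 29 was not stable: it was 0 without attached replicate 2 or detached replicate 1, 3 without detached replicate 2, 8 without early replicate 1, 10 without attached replicate 3, 12 without attached replicate 1, 14 without D4 attached replicate 2, 19 without D4 early replicate 3, and 15 without early replicate 2 or either detached D4 RNA. All 3 attached RNAs shared a fluidics run with detached replicate 1 and none with the other detached RNAs. With the run as a block 12 were called, and within 1 shared run 2. On MOE430B 2 probe sets were called, both lower in detached cells, among them Zfp980, a zinc-finger gene, at -2.53 (adjusted p = 0.000586).

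Attached minus early shares its early RNAs with detached minus early, so the values are given only beside each other. Over the 99 lower calls the median change was -2.35 for detached and -0.69 for attached cells, and over the 18 higher calls 1.58 for detached and 0.49 for attached cells. Both sets were picked by the detached change, which favours larger detached medians. On MOE430A attached minus early gave 1 call, the rise of Scnn1a (adjusted p = 0.00945), and 0 lower calls (1390 probe sets at an unadjusted p under 0.05, limma). The change was -3.62 in detached and -0.38 in attached cells for Tnc, -3.49 and -0.61 for Thbs1, -2.35 and -0.39 for Axl, and -2.59 and -0.18 for Fosl1. It was -4.94 in detached and -2.55 in attached cells for Col1a1, -4.26 and -2.45 for Tagln, -3.08 and -2.40 for Cnn1, and -4.58 and -1.04 for Cd44. None of these attached values was called. Among the rises it was 1.99 in detached and 2.37 in attached cells for Scnn1a, 1.73 and 0.29 for Txnip, and 1.92 and 0.38 for Tefm. It was 3.48 and 3.59 for Cubn, 2.22 and 2.10 for Rad9b and 2.82 and 2.30 for Lefty2, where the attached values were not called (adjusted p = 0.0933, 0.242 and 0.201). Detached minus attached was 1.44 for Txnip and 1.54 for Tefm (adjusted p = 0.0621 for each). Attached replicate 1 stood apart on MOE430A. It correlated with the other attached RNAs at r = 0.866 and 0.877, against 0.946 between those. Its 5th percentile of signal was 109.3, against 37.6 and 29.3. It read 8.1 for Col1a1, against 10.39 and 10.73, and 8.85 for Cnn1, against 7.52 and 7.45.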

How the data were processed

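Total RNA of C2 and D4 mouse ES cells was hybridised to the Affymetrix array types MOE430A and MOE430B. The authors deposited a linear signal intensity for each probe set of each array. Per the submitters' processing notes, the software was MAS5. MAS5 combines matched and mismatched probes and scales each array separately. The MAS5 version is not given in the sources used here, detection calls were not used, and the number of arrays limits the precision. The deposited intensities were converted to log2(signal + 16) and not rescaled. The pseudocount understates the folds of dim features. Testing was limited to features brighter than the array median on 2 or more of the 17 arrays of a type, without the control probe sets. Symbols came from the platform annotation, updated by gene ID: of 22690 probe sets on MOE430A, 20393 had 1 symbol, 691 several and 1606 none, and of 22575 on MOE430B, 14674, 245 and 7656. Only probe sets with 1 symbol were named.

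Each array type was fitted with limma 3.58.1 in R 4.3.3, with 6 groups of line and state sharing 1 spread. Benjamini-Hochberg adjustment ran over all tested probe sets of an array type and calls were made under 0.05. For lists, each gene was represented by the brightest of its tested probe sets, with MOE430A preferred over MOE430B. The samples, the 34 gene lists and the tests were chosen with earlier results of these data known. Named genes were the 12 largest rises and 12 largest falls called on MOE430A and the 4 largest each way on MOE430B (non-overlapping groups, mean above 8 in the brighter group), up to 4 called genes per list and direction, a fixed set, and calls of detached minus attached. Amotl2, Cald1, Bgn, Col5a1, Col5a2, Postn, Lox, Vim, Gsn, the annexins and uncalled list members were named after their values were seen. Fluidics runs and chip lots were read from the scanner information per the file headers, with runs inferred from stations and times. The same replicate numbers in 2 groups did not pair the samples: deviations from group means of same-numbered RNAs correlated at 0.02 to 0.05 on MOE430A. The fits were tested on simulated data. Promoter windows (250 bases before to 50 after a start) came from RefSeq on GRCm38.p6. Ccn2, Tagln and Thbs1 are named without a window.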

Additional observations from a re-analysis of the deposited data

How the results depend on the processing

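Counts are given as higher and lower probe sets of C2 detached minus early on MOE430A, reported as 18 and 99. They were 10 and 64 with no filter on dim probe sets, 39 higher with the 75th percentile filter, 117 and 227 with array weights, 0 and 0 with the feeder list mean as a covariate, 28 higher without attached C2 replicate 1 and attached D4 replicate 3, and 7 and 29 with only the arrays of the contrast. Chosen after seeing the data, the fluidics run as a block gave 0 and 2, and the 1 shared run 1 and 3. With the replicate block, where the numbers do not pair the samples, there were 11 and 74. Leaving out single RNAs gave 6 to 46 higher and 40 to 123 lower. Each of the 117 kept its sign wherever it was tested, except that 97 did with the covariate. As none of the 117 overlapped between the groups, the sign in the other fits was largely fixed in advance and decides nothing. On MOE430B, reported as 1 and 2, the counts were 0 and 0 with pseudocount 1, quantile normalization, the covariate, the contrast's arrays alone, the 2 RNAs left out or the replicate block, 2 and 1 with the 75th percentile filter, 2 and 0 with the chip lot as a block, 0 higher without a filter and 0 lower with the run block or the 1 shared run. Single RNAs left out gave 0 to 3 higher and 0 to 2 lower. The difference between lines, reported as 0, gave 1 on MOE430A with array weights, the replicate block or the 2 RNAs left out, and 1 on MOE430B with the 75th percentile filter; without single RNAs it gave 0 to 2 and 0 to 1. Detached minus attached, reported as 29, gave 3 with no filter, 4 with quantile normalization, 591 with array weights, 0 with the replicate block, the covariate or the contrast's arrays alone, 12 without the 2 RNAs or with the run block, 2 in the 1 shared run, and 0 to 31 without single RNAs. With the covariate, which includes Acta2 itself, Igfbp7 turned to 0.60, Ccnd2 to 0.46, Thy1 to 0.36, Cnn1 to 0.30 and Acta2 to 0.52, none called. The cause was not tested.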

Other observations

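Annexins, calcium-dependent membrane-binding proteins, were looked at after their values were seen. Of 9 tested on MOE430A, Anxa1, Anxa2 and Anxa5 were lower in detached C2 cells, where 0.418% of all tested genes were called lower. Anxa2, which forms a complex with S100a10 at the cell surface, read 9.9, 10.53 and 10.89 in detached cells, against 13.13, 12.45 and 14.07 in early cells (change -2.78, SE 0.431, limma adjusted p = 0.00753). Anxa1 was at -2.85 (adjusted p = 0.0101) and Anxa5 at -2.54 (0.0203). Anxa3 was at -1.86 (0.145) and was not called, although its detached RNAs, at 10.05 to 10.35, lay below its early RNAs, at 10.93 to 13.52. Anxa4 at -0.52 (0.498), Anxa6 at -0.04 (0.977) and Anxa7 at -0.01 (0.989), Anxa8 at -0.49 (0.598) and Anxa13 at -0.35 (0.842) were not called either. In D4 the changes were -3.45 for Anxa1, -1.98 for Anxa2 and -2.20 for Anxa5. The feeder list mean was lower in the same RNAs, and its part in these changes was not tested.

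Gsn, which encodes the actin-severing protein gelsolin, was also looked at after its values were seen. It was called lower on all 4 of its tested MOE430A probe sets, with changes of -2.31, -2.64, -2.70 and -2.88. Of all tested MOE430A probe sets 0.699% were called lower. The part of the lower feeder list mean in the Gsn changes was not tested. In attached cells the same probe sets were at -1.44, -1.11, -1.29 and -0.99.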
